A study of Mus musculus with 32 samples.

Results

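The 9 genes described here mark B cells and antibody-secreting plasma cells, and they were followed through libraries of purified T cells. They are Cd79a, Cd79b, Ms4a1, Pax5, Cd22, Fcer2a, Blk, Ebf1 and Igj, taken by symbol from the 24302 genes that every count table lists. All 9 passed the filter on low counts and are among the 12332 genes tested. Poly(A) RNA was taken from CD4+ T cells that had been isolated out of C57BL/6J spleen together with axillary and inguinal lymph nodes. One genotype was wild type (WT), and the other was labelled knockout (KO) for Nr4a1, which encodes the nuclear receptor Nur77. The 4 treatments were none, activation through CD3 and CD28 by antibody (12 h, called stimulation), and the same activation with 10 µg/ml of either XCT790, a ligand that lowers the activity of estrogen-related receptor alpha, or CompA, known here by its code alone. This gave 8 groups of 4 libraries, WT libraries numbered 1 to 16 and KO-labelled libraries numbered 25 to 40, in runs of 4 consecutive numbers with one library of each treatment. No age of the mice, allele or vehicle is stated in the labels, and the text on stimulation makes no exception for the samples labelled as controls. Whether the replicates are different mice is not stated. The p-values here reflect how far replicate libraries scatter, pooled over all groups in a fit, and that scatter may be only technical.

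As background, B cells carry a receptor made of membrane immunoglobulin and the signalling pair Cd79a and Cd79b, and the kinase Blk acts close to that pair. Ms4a1 (CD20), Cd22 and Fcer2a (CD23) are surface proteins of mature B cells: Cd22 is an inhibitory lectin that restrains receptor signalling, and Fcer2a is the low-affinity receptor for immunoglobulin E. Ebf1 and Pax5 are transcription factors that set and maintain B cell identity, and Igj (current symbol Jchain) encodes the J chain that joins polymeric immunoglobulin M and A and is made above all by plasma cells. CD4+ T cells are not a usual source of most of these transcripts, so in a T cell preparation they are commonly read as a sign of other lymphocytes. In bulk RNA, fewer cells of a type and less RNA per cell cannot be told apart.

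The libraries held 16.0 to 23.7 megacounts in genes. Levels are given as CPM, the counts of a gene per megacount of its library, scaled between libraries by TMM factors, as mean ± SD of 4 libraries. A gene is said to be called, to rise or to fall where edgeR's quasi-likelihood test gave a Benjamini-Hochberg adjusted p under 0.05 over all genes tested, and fold changes are on the log2 scale with their SE. Where groups are said not to overlap, this is a description, and the share of all genes that separated likewise is not given. Counts of markers called by DESeq2 or limma-voom are given below without the share of all genes called. Nr4a1, the targeted gene, stood at 71.6 ± 21.3 CPM in WT and 94.1 ± 10.9 in KO-labelled unstimulated libraries, and at 166 ± 32.7 and 332 ± 128 in stimulated ones, so its transcript was not lower under the KO label. The groups are therefore called KO-labelled. The T cell markers Cd3e (225 to 463 CPM) and Cd4 (324 to 940 CPM) were present in all 32 libraries, with Cd4 lowest in library 30. Summed over the 9 B and plasma cell markers, the level was 202 ± 28.9 CPM in WT unstimulated libraries against 8650 ± 534 for a list of 14 T cell identity genes. KO-labelled libraries 29 to 32 stood apart in most of the 9 markers, and the main results on KO-labelled groups are given with and without them. They were singled out with earlier results of these data known. Leaving out libraries high in the tested markers shifts the means and narrows the spread. The p-values of fits without them are therefore not independent of that choice and are given as a description.

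The 9 genes lie on 7 chromosomes of GRCm38 (mm10). Cd79a is at chr7:24897381-24902197 on the plus strand and Cd22 on the same chromosome at chr7:30865402-30880342 on the minus strand, while Cd79b (chr11:106311341-106314762, minus) and Ebf1 (chr11:44617317-45008091, plus) share chromosome 11. The others are Ms4a1 at chr19:11249675-11266241, Pax5 at chr4:44524757-44710487, Fcer2a at chr8:3681737-3694175, Blk at chr14:63372836-63417037 and Igj at chr5:88519809-88527891, all on the minus strand. Exons of Ms4a1 overlap the antisense gene 4930526L06Rik and exons of Pax5 overlap 5730488B01Rik on the opposite strand, both also listed in the tables. No source states whether reads were counted by strand, so reads of such partners may be mixed. Exons of Pax5 and Cd22 also overlap the antisense genes Gm12462 and Gm29439, which are not analysed here.

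In WT libraries Cd79a was lower and Fcer2a higher after stimulation in 4 of 4 runs, and the stretches upstream of their start sites are shown for that reason. Neither change was called in the fit of all libraries. In the KO-labelled run of library 29 both genes were lower after stimulation. They are from RefSeq (GRCm38.p6), cut where either annotation begins the gene: Cd79a at chr7:24897247-24897380 on the plus strand and Fcer2a at chr8:3694176-3694424 on the minus strand. Capitals mark matches on either strand to 3 motifs. The EBF motif was searched as CNNGGGA, part of the site of EBF factors. The E-box was searched as CAGGTG. The ETS core was searched as GGAAGT.
Cd79a: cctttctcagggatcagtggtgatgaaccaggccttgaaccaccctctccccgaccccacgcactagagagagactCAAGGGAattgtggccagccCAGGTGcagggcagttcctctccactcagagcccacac
Fcer2a: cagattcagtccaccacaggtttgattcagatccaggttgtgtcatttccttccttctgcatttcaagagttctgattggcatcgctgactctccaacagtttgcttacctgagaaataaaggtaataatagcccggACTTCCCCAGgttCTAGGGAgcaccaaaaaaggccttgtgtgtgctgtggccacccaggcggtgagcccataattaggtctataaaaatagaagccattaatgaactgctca
In Fcer2a the first run of capitals joins an ETS core and an EBF motif that overlap. Over the whole 250 bases before the RefSeq start, Cd79a held 1 match each to the EBF motif, the E-box and the ETS core, and Fcer2a 2 to the EBF motif and 1 to the ETS core. Cd22 held 3 matches to the EBF motif and 1 to the E-box, Pax5 2 to the EBF motif, and the windows of Ebf1 and Igj none of these. The octamer ATTTGCAT, also searched, had no match in these 6 genes. Among 32851 promoter windows of the same length, 51.5% held the EBF motif, 17.2% the E-box, 19.7% the ETS core and 1.6% the octamer. The table has no entry for Cd79b, Ms4a1 and Blk.

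All 9 markers had counts in every library, and among WT groups the unstimulated one had the highest mean of 8 of them, all but Fcer2a. On a scale per length (CPM per kilobase of exon), the receptor pair led in WT unstimulated libraries, with Cd79b at 38.1 ± 8.96 and Cd79a at 21.4 ± 4.03, followed by Igj at 14.4 ± 2.49 and Ms4a1 at 6.16 ± 1.74. Fcer2a at 3.62 ± 0.37, Blk at 3.27 ± 0.79 and Cd22 at 3.26 ± 0.45 did not differ beyond their spread. The transcription factors Ebf1 (0.309 ± 0.08) and Pax5 (0.237 ± 0.043) were the lowest. In KO-labelled unstimulated libraries the order of the means put Igj first at 52.9 ± 53.6 CPM per kilobase, an SD as large as the mean.

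**Figure D1:**
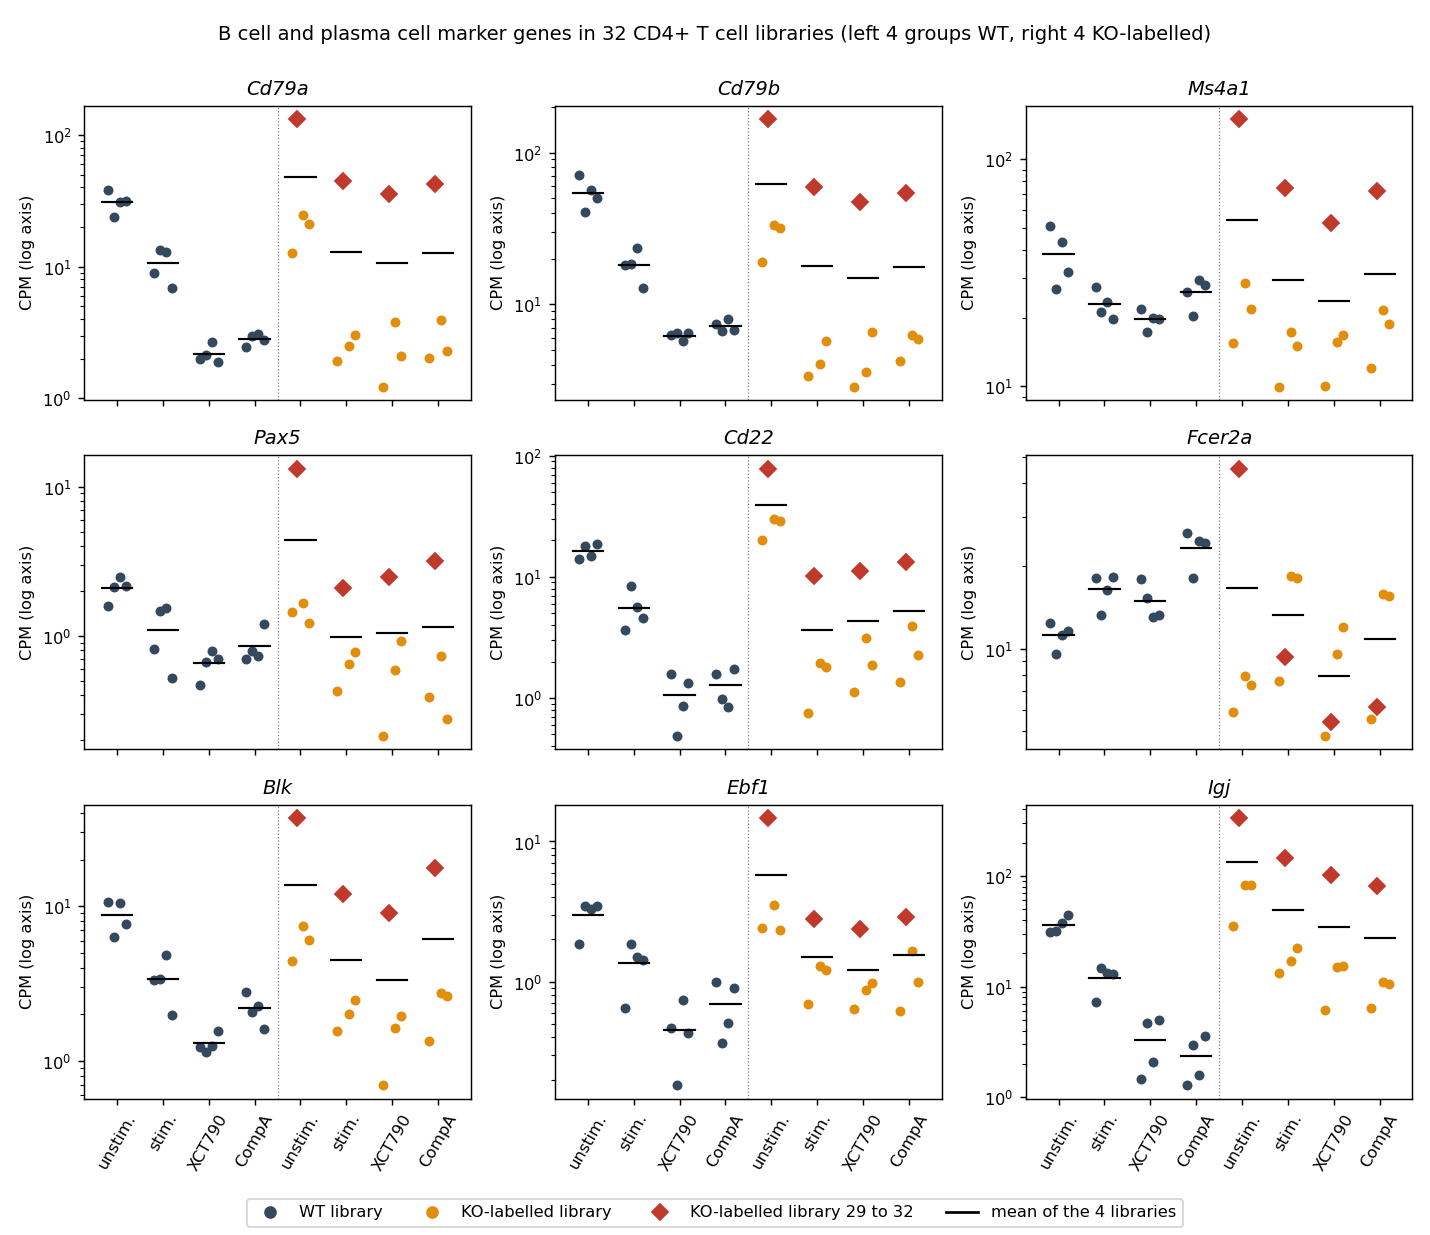
Level of each of the 9 marker genes in each library in CPM (log axis), by group, with WT groups left and KO-labelled groups right of the dotted line, points for libraries and bars for the mean of 4. The red diamonds, KO-labelled libraries 29 to 32, lie above the other KO-labelled libraries for 8 genes in each condition, and for Fcer2a in unstimulated cells only.

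Among unstimulated WT libraries the receptor genes differed by less than 2 times. Cd79a stood at 38.3, 24.0, 30.8 and 31.3 CPM in libraries 1, 5, 9 and 13, and Cd79b at 70.9, 40.3, 56.8 and 50.2 CPM. Ms4a1 stood at 50.6, 26.8, 43.2 and 31.8 CPM. Library 1 was the highest and library 5 the lowest for these B cell receptor and CD20 genes. The order was not shared by Igj, at 31.2, 31.8, 37.5 and 44.6 CPM, nor by Ebf1, for which library 1 was the lowest at 1.85 CPM against 3.28 to 3.46 in the other 3. Pax5 rested on 25 to 52 counts per unstimulated WT library and Ebf1 on 29 to 83, the fewest of the 9 markers. With XCT790 Ebf1 had as few as 3 counts in a library and Pax5 as few as 4. Their SEs in the fit of all libraries were not the largest. On WT stimulation the SE was 0.54 for Ebf1 and 0.71 for Pax5, against 0.96 for Cd79a.

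Among unstimulated KO-labelled libraries, library 29 exceeded each of the other 3 by at least 2.61 times in all 9 markers. Cd79a stood at 12.8, 132, 24.9 and 21.0 CPM in libraries 25, 29, 33 and 37, and Cd79b at 19.0, 166, 33.3 and 31.7 CPM. The same libraries held Ms4a1 at 15.5, 150.0, 28.6 and 21.8 CPM. One library thus set the group mean of these 3 genes, while the other 3 libraries lay within or below the WT range. The transcription factors followed, with Pax5 at 1.45, 13.2, 1.65 and 1.22 CPM and Ebf1 at 2.42, 14.7, 3.51 and 2.35 CPM. Igj stood at 35.1, 333, 82.3 and 82.8 CPM. Cd22, at 20.3, 78.5, 30.0 and 29.0 CPM, differed least, and its other 3 libraries were themselves above all 4 WT libraries (14.1 to 18.6 CPM). Among libraries 25, 33 and 37, library 25 had the lowest level for 7 of the 9 genes, all but Pax5 and Ebf1.

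Libraries 30 to 32, the treated libraries of the same run of numbers, were also high. In stimulated cells Cd79a stood at 44.5 CPM in library 30 against 1.93, 2.5 and 3.01 CPM in libraries 26, 34 and 38, which is 14.8 times the highest of those. With XCT790 it stood at 35.5 CPM in library 31 against 1.23 to 3.79, and with CompA at 42.6 CPM in library 32 against 2.02 to 3.91. Each of these 3 libraries was above every stimulated WT library, with or without inhibitor, and within or just above the unstimulated WT range of 24.0 to 38.3 CPM. Over the 4 conditions, libraries 29 to 32 exceeded the highest of the other 3 by 4.99 to 10.3 times for Cd79b, 3.09 to 5.24 times for Ms4a1, 2.68 to 7.97 times for Pax5 and 2.61 to 5.19 times for Cd22. The factors were 4.63 to 6.43 for Blk, 4.02 to 7.46 for Igj and 1.74 to 4.18 for Ebf1.

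Fcer2a was the exception in this run. Library 29 had 45.2 CPM of it against 5.86, 7.96 and 7.37 in libraries 25, 33 and 37. In stimulated cells library 30 had 9.32 CPM against 7.62, 18.3 and 18.0, with XCT790 library 31 had 5.39 against 4.81, 9.59 and 12.0, and with CompA library 32 had 6.13 against 5.56, 15.8 and 15.5. Libraries 30 to 32 were thus at 0.517, 0.562 and 0.395 times the median of the other 3 in this one marker. Libraries 25 to 28, the run with the lowest unstimulated Cd79a, were also low in Fcer2a.

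A scan of all genes described which genes set this run apart. The run and the markers were chosen with earlier results of these data known, so the scan is not a test of either. Of 10864 genes whose mean reached 1 CPM, 44 (0.405%) were at least 2 times as high in libraries 29 to 32 as in each other KO-labelled library in all 4 conditions, and 7 of the 9 markers were among them, all but Fcer2a and Ebf1. The other 3 runs of KO-labelled libraries had 0, 0 and 1 such genes. Of 17 measured B cell receptor signalling genes 9 were among the 44, including the coreceptor gene Cr2, the adaptor genes Blnk and Bank1 and the inhibitory receptor gene Fcgr2b. Other lists gave fewer. They were the plasma cell chaperone gene Mzb1 (1 of 12 plasma cell genes) and the B cell factor genes Spib and Bcl11a (2 of 11). The receptor genes Cd180 and Faim3 (2 of 13) and the class II peptide-loading gene H2-DMb2 (1 of 10) also passed. Beyond the B lineage the 44 held Cd8a (1 of 7 natural killer and CD8 genes), at 27.2 CPM in library 29 against 6.98 to 7.59, and red cell genes, among them Alas2. Alas2 stood at 228 CPM in library 30 against 3.59 to 15.9. High Alas2 was not particular to this run. WT library 1 held 259 CPM against 32.0 to 50.3 in the other unstimulated WT libraries, and WT library 2 held 96.5 against 18.6 to 19.8 in the other stimulated ones. None of 17 myeloid, 14 T cell identity, 3 B cell precursor or 5 germinal centre genes was among the 44. Cd8b1, the partner of Cd8a, was 44.0 CPM in library 29 against 20.1 to 23.6 but 26.9 in library 30 against 23.3 to 23.9. Some markers of B cells, red cell genes and Cd8a were thus high together in these 4 libraries, and their part in the results was not tested.

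**Figure D2:**
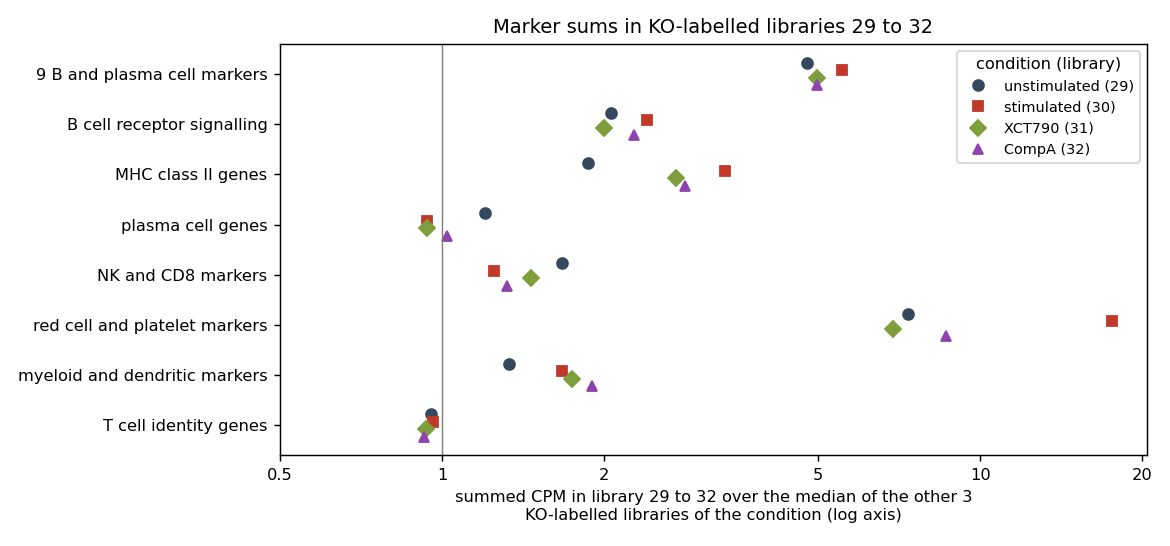
Summed CPM of marker lists in KO-labelled libraries 29 (unstimulated), 30 (stimulated), 31 (XCT790) and 32 (CompA), each divided by the median of the other 3 KO-labelled libraries of its condition (log axis). The 9 markers lie at 4.77 to 5.54 times and the red cell list at 6.88 to 17.6 times, while the T cell identity list stays at 0.927 to 0.961 times.

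After 12 h of stimulation most of the markers were lower. In WT libraries the sum of the 9 was 202 ± 28.9 CPM before and 91.8 ± 10.3 CPM after stimulation. Cd79a stood at 8.96, 13.4, 13.0 and 6.93 CPM in stimulated libraries 2, 6, 10 and 14, with no overlap with the unstimulated ones. Cd79b was 12.9 to 23.6 CPM, Blk 1.99 to 4.84 and Igj 7.32 to 14.6. Each of the 8 markers other than Fcer2a was lower in the stimulated library of all 4 WT runs. Fcer2a went the other way, from 12.4, 9.60, 11.2 and 11.6 CPM unstimulated to 18.1, 13.2, 16.4 and 18.2 CPM, higher in 4 of 4 runs.

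The test of this difference depended on which libraries gave the spread. In the fit of all 32 libraries 1 of the 9 fell, where 38.8% of all tested genes fell, and none rose: Cd22, by 1.56 ± 0.64 on the log2 scale (SE, adjusted p = 0.0289). That call was lost without library 2, 10 or 14 (adjusted p = 0.0512 to 0.0732). In a fit of only the 8 WT libraries compared, with no KO-labelled library in the spread, 8 of the 9 fell (34% of 11660 genes fell) and Fcer2a rose (35.8% rose). There Cd79a fell by 1.49 ± 0.21 (adjusted p = 0.000186), Igj by 1.53 ± 0.22 (adjusted p = 0.000167) and Ms4a1 by 0.65 ± 0.19 (adjusted p = 0.0115), and Fcer2a rose by 0.63 ± 0.15 (adjusted p = 0.00312). For Cd79a the fold change was -1.56 in the first fit and -1.49 in the second, but its standard error went from 0.96 to 0.21. With the run of numbers as a replicate block, the same 9 genes were called in the same directions (38.1% of genes fell and 39.1% rose).

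WT stimulated libraries without inhibitor kept other cells' transcripts. The myeloid and dendritic list summed to 3390 ± 794 CPM in unstimulated WT libraries, to 977 ± 526 in stimulated ones and to 15.0 ± 6.04 and 13.9 ± 2.81 with XCT790 and CompA, and 17 of its 19 genes fell on stimulation. Csf1r, the receptor of macrophage colony-stimulating factor, went from 599 ± 220 to 177 ± 116 CPM and to 0.633 ± 0.439 with XCT790. Library 6 had the most of these transcripts among the stimulated WT libraries (1750 CPM of the list against 599 to 823) and the highest level of 4 of the 9 markers, Cd79a, Cd22, Ebf1 and Igj. It was not the highest for Cd79b, Ms4a1, Pax5 and Blk, and for Fcer2a it was the lowest, at 13.2 CPM. The part of these cells in the marker levels was not tested. For this reason the inhibitor-treated groups were also set against unstimulated cells, a comparison chosen after the levels were seen.

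**Figure D3:**
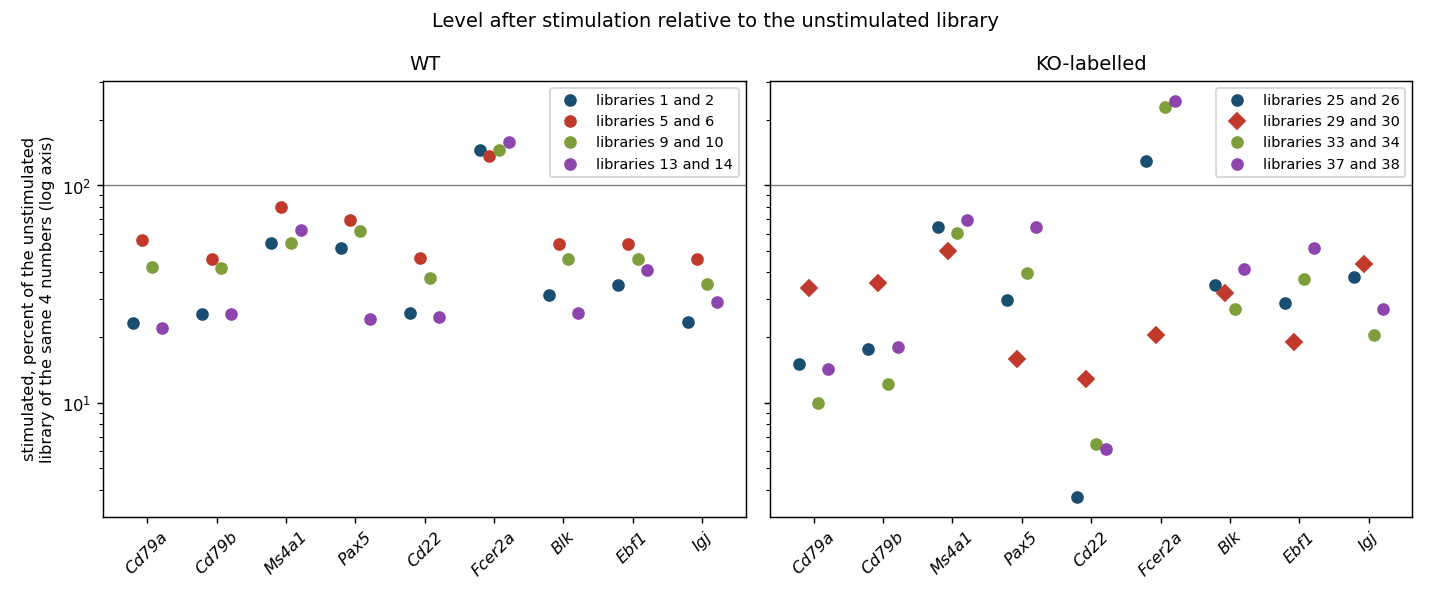
Level in each stimulated library as a percentage of the unstimulated library of the same run of 4 numbers (log axis), for each marker, WT left and KO-labelled right. Fcer2a lies above 100 in all 4 WT runs and in 3 of 4 KO-labelled runs, while libraries 29 and 30 (diamonds) put it at 20.6%, and Cd22 lies lowest, at 3.7 to 12.9% in KO-labelled runs.

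In KO-labelled libraries Cd22 and Cd79a stood at a smaller part of the unstimulated level after stimulation. Relative to the unstimulated library of its run, Cd22 stood at 3.70, 12.9, 6.49 and 6.15% in the runs starting at libraries 25, 29, 33 and 37, against 24.8 to 46.4% in WT runs. Cd79a stood at 15.1, 33.8, 10.0 and 14.3%, against 22.1 to 56.0% in WT runs. For Cd22 the genotypes did not overlap, and for Cd79a they overlapped only through the run of library 29. Ms4a1 kept the largest part among the 8 in the KO-labelled runs, at 49.9 to 69.5%. In WT runs it stood at 54.2 to 79.4%, also the largest part except in the run of library 9, where Pax5 stood at 61.9% and Ms4a1 at 54.3%.

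With all 32 libraries 4 of the 9 markers fell on stimulation of KO-labelled cells, where 42.4% of all genes fell, and none rose. Cd22 fell by 3.47 ± 0.68 (adjusted p = 3.48e-05), Pax5 by 2.16 ± 0.71 (adjusted p = 0.00642), Ebf1 by 1.95 ± 0.53 (adjusted p = 0.00149) and Blk by 1.64 ± 0.73 (adjusted p = 0.0404). Leaving out library 29 alone took Pax5 to a fall of 0.57 (adjusted p = 0.395), Ebf1 to 0.90 (adjusted p = 0.0726) and Blk to 0.43 (adjusted p = 0.58), with library 30 still in the stimulated group. Blk also lost its call without library 26, 34 or 38 (adjusted p = 0.0961 to 0.115). Leaving out libraries 29 to 32 together gave 8 markers that fell (41.5% of genes fell) and Fcer2a that rose (38.3% rose): Cd79a fell by 2.97 ± 0.32 (adjusted p = 7.79e-09), Cd22 by 4.12 ± 0.41 (adjusted p = 1.48e-09) and Pax5 by 1.19 ± 0.39 (adjusted p = 0.00778). With the run as a replicate block and all libraries kept, the 8 markers other than Fcer2a fell (43.6% of genes fell).

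Fcer2a turned direction with these libraries. In the fit of all libraries its change on stimulation of KO-labelled cells was -0.31 ± 0.45 (adjusted p = 0.529). Without libraries 29 to 32 it rose by 1.06 ± 0.32 (adjusted p = 0.00454). In the single runs Fcer2a stood at 130% of the unstimulated level in the run of library 25, at 230% and 245% in those of libraries 33 and 37, and at 20.6% in that of library 29.

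In WT cells the inhibitor-treated libraries held less of most markers than those stimulated alone. Cd79a stood at 1.99, 2.12, 2.67 and 1.88 CPM with XCT790 and at 2.45, 2.99, 3.10 and 2.76 CPM with CompA, below every stimulated WT library without inhibitor. Cd22 was 0.486 to 1.58 CPM with XCT790 and 0.845 to 1.74 with CompA, and Igj 1.46 to 4.99 and 1.28 to 3.60 CPM. In the fit of all libraries Cd22 was the only one of the 9 that fell with XCT790 against stimulation alone (20.2% of genes fell), by 2.37 ± 0.76 (adjusted p = 0.0189). It was also the only one with CompA (21.3% of genes fell), falling by 2.11 ± 0.75 (adjusted p = 0.0294). The XCT790 call was lost without library 6, 7 or 11 (adjusted p = 0.0523 to 0.0649), and the CompA call without library 4, 6, 8 or 12 (adjusted p = 0.0512 to 0.0847).

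In fits of only the groups compared, 6 of the 9 fell with XCT790 (19.1% of 11118 genes fell). Cd79a fell by 2.30 ± 0.24 (adjusted p = 8.66e-05), and Cd79b, Cd22, Blk, Ebf1 and Igj fell with it. With CompA 4 fell (20.2% of 11105 genes), namely Cd79a, Cd79b, Cd22 and Igj, and Fcer2a rose by 0.49 ± 0.14 (adjusted p = 0.0208, 15.4% of genes rose). The replicate block gave 6 lower with XCT790 (25.9% of genes fell) and 5 lower (28.2%) and 1 higher (10.7%) with CompA. In the same libraries Csf1r, a myeloid gene, went from 77.7 to 344 CPM without inhibitor to 0.243 to 1.13 CPM with XCT790, so these falls stand beside a fall of myeloid transcripts whose part was not tested.

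KO-labelled stimulated libraries held little of the myeloid list to begin with (23.6 ± 6.93 CPM), and there no marker passed the test with either compound in the fit of all libraries. None of the 9 was called with XCT790 (11.3% of genes were called) or with CompA (19.3%), and none without libraries 29 to 32 (10.3% and 15.9%). In edgeR's fit of all libraries none of the 9 had an unadjusted p under 0.05 with either compound, and DESeq2 and limma-voom called 0 as well, while without libraries 29 to 32 an unadjusted p under 0.05 was found for Fcer2a with XCT790 and for Igj with CompA. With the replicate block, Igj fell with both compounds, by 0.59 ± 0.16 with XCT790 (adjusted p = 0.015) and by 0.92 ± 0.16 with CompA (adjusted p = 0.000665), lower in 4 of 4 runs each. Blk fell by 0.51 ± 0.17 with XCT790 (adjusted p = 0.0401). The blocked fit called 12.5% of genes lower with XCT790 and 16.3% with CompA. Cd22, by contrast with WT cells, was no lower with either compound than without it in any of the 4 runs, at 106 to 162% with XCT790 and 128 to 203% with CompA.

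Against unstimulated cells, 7 of the 9 markers fell in WT cells with XCT790 (41.3% of genes fell). Cd22 fell by 3.94 ± 0.75 (adjusted p = 2.82e-05) and Cd79a by 3.84 ± 1.11 (adjusted p = 0.00256), with Ms4a1 and Fcer2a the 2 not called. With CompA 6 fell (41.1% of genes), and Fcer2a rose by 1.06 ± 0.46 (adjusted p = 0.0362, 37.2% of genes rose). In KO-labelled cells 8 fell with XCT790 (39.4% of genes), Fcer2a included at 1.06 ± 0.46 (adjusted p = 0.0382). With CompA 4 fell (39.3%): Pax5, Cd22, Ebf1 and Igj. Without libraries 29 to 32 Fcer2a took the opposite sign in KO-labelled cells, +0.32 ± 0.33 with XCT790 (adjusted p = 0.377) and a rise of 0.81 ± 0.33 with CompA (adjusted p = 0.0277, 38.1% of genes rose). Several of these calls rested on single libraries. In WT cells the Pax5 call with XCT790 was lost without any 1 of the 8 libraries compared (adjusted p = 0.0534 to 0.0879), and the Fcer2a call with CompA without library 4, 5, 9, 12, 13 or 16 (0.0663 to 0.0914). In KO-labelled cells, leaving out library 29 ended the XCT790 calls of Cd79a, Cd79b, Pax5, Blk and Igj (adjusted p = 0.263 to 0.479) and the CompA calls of Pax5, Ebf1 and Igj (0.0912 to 0.597). The XCT790 calls of Cd79a, Cd79b and Igj were also lost without library 27, 35 or 39 (0.0789 to 0.106), and that of Fcer2a without library 27 or 31 (0.106 and 0.0951). These comparisons share the unstimulated libraries with those on stimulation alone.

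XCT790 and CompA were given at the same concentration and time, and the 2 compounds could be compared directly over the 9 markers in each genotype. In the fit of all libraries none of the 9 differed in WT cells (9.41% of genes were called) or in KO-labelled cells (3.24%), 0 had an unadjusted p under 0.05 by edgeR in either genotype, and DESeq2 and limma-voom called 0. The SEs were wide there, with a difference for Cd79a in WT cells of -0.38 ± 1.18. In a fit of only the WT groups compared, Fcer2a was lower with XCT790 than with CompA by 0.65 ± 0.14 (adjusted p = 0.00714), Ms4a1 by 0.39 ± 0.12 (adjusted p = 0.032) and Blk by 0.74 ± 0.20 (adjusted p = 0.0224), where 13.4% of 10625 genes were lower. Fcer2a stood at 17.9, 15.3, 13.0 and 13.2 CPM with XCT790 and at 26.3, 18.0, 24.6 and 24.3 CPM with CompA, with no overlap. With the replicate block Blk was lower with XCT790 in KO-labelled cells, by 0.79 ± 0.16 (adjusted p = 0.00845), where 4.09% of genes were lower, and Ms4a1 and Fcer2a were the 2 markers called in WT cells (7.78% lower).

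The make-up of the marker signal differed between treatments. Ms4a1 made up 18.7 ± 2.96% of the summed CPM in unstimulated WT libraries and 39.7 ± 2.89% with XCT790, and Fcer2a 5.58 ± 0.29% and 29.7 ± 3.37%. Cd79a went from 15.4 ± 0.89% to 4.38 ± 0.91%. For each unit of Cd79a there were 0.322 to 0.400 units of Fcer2a in unstimulated WT libraries, 0.984 to 2.63 after stimulation, 4.87 to 8.97 with XCT790 and 6.02 to 10.7 with CompA. In KO-labelled libraries 26, 34 and 38 the ratio was 3.94, 7.34 and 6.00. In library 30 it was 0.210, below that of unstimulated library 29 (0.344) and outside the range of all other libraries stimulated without inhibitor. Libraries 31 and 32 of the same run had 0.152 and 0.144 units, against 2.53 to 6.80 in the other KO-labelled libraries with an inhibitor. Ms4a1 per Cd79a was 1.68 in library 30 against 5.03 to 6.92 in the other KO-labelled libraries stimulated without inhibitor, above the 1.14 of library 29 and within the range of stimulated WT libraries (1.59 to 3.06). It was 1.47 in library 31 and 1.71 in library 32, against 4.13 to 8.24 in the other KO-labelled libraries with an inhibitor. The low ratios were thus shared by the 3 treated libraries of this run.

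Between genotypes, the sign of several differences turned on libraries 29 to 32. Fits without these libraries leave out high levels of the tested markers, so their p-values depend on that choice and cannot be taken at face value. In unstimulated cells the means were 47.6 ± 56.3 CPM of Cd79a under the KO label and 31.1 ± 5.87 CPM in WT, and 19.6 ± 6.16 CPM under the KO label without library 29. With all libraries none of the 9 was called (36.1% of genes were called). An unadjusted p under 0.05 by edgeR was found for 2, Cd22 and Igj, and DESeq2 called 0 and limma-voom 1. Without libraries 29 to 32, 3 markers were lower under the KO label (23.1% of genes were lower): Cd79a by 0.67 ± 0.26 (adjusted p = 0.0488), Cd79b by 0.96 ± 0.23 (adjusted p = 0.00363) and Ms4a1 by 0.79 ± 0.24 (adjusted p = 0.0137). Of 19 myeloid and dendritic genes 9 were also lower and 0 higher in that fit, with a median of -1.05, and the part of those cells was not tested. Igj was higher by 0.88 ± 0.34 (adjusted p = 0.0472, 13.8% of genes were higher). With the replicate block and all libraries, Cd22 was higher by 1.05 ± 0.30 (adjusted p = 0.00774) and Igj by 1.38 ± 0.48 (adjusted p = 0.0265), where 14.5% of genes were higher. Cd22 was the one marker for which all 4 KO-labelled unstimulated libraries lay above all 4 WT libraries, and the share of all genes that did so is not given.

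**Figure D4:**
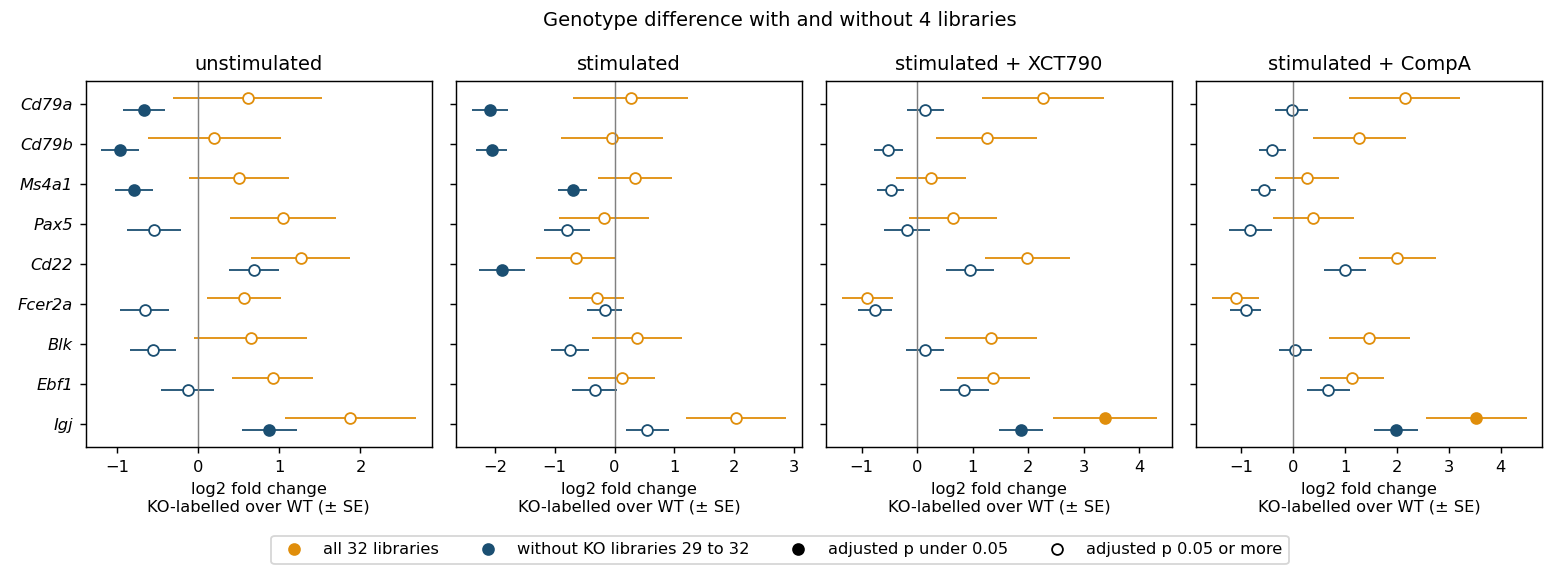
Log2 fold change of each marker between KO-labelled and WT cells with its SE, in the 4 conditions, from the fit of all 32 libraries and from the fit without KO-labelled libraries 29 to 32, with filled points for an adjusted p under 0.05. Igj with XCT790 (3.38 and 1.88) and with CompA (3.52 and 1.98) is the one marker called in both fits, while in unstimulated cells all 9 differences are above 0 in the first fit and 7 of them, all but Cd22 and Igj, are below 0 in the second.

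In stimulated cells none was called with all libraries either (25.2% of genes). There edgeR gave an unadjusted p under 0.05 for Igj alone, and DESeq2 called 1 marker and limma-voom 0. Without libraries 29 to 32, 4 markers were lower under the KO label (18.7% of genes were lower): Cd79a by 2.08 ± 0.31 (adjusted p = 1.19e-05), Cd79b by 2.05 ± 0.26 (adjusted p = 1.53e-06), Cd22 by 1.88 ± 0.39 (adjusted p = 0.000638) and Ms4a1 by 0.70 ± 0.24 (adjusted p = 0.0326). For these 4 genes the 3 remaining KO-labelled libraries lay below all 4 WT libraries, and the share of all genes that did so is not given. The WT libraries of this comparison are the ones that kept myeloid transcripts, 977 CPM of that list against 23.6, and the part of those cells was not tested. With the inhibitors, where both genotypes held 13.9 to 32.6 CPM of the myeloid list on average, the level of Cd79a without libraries 29 to 32 was 2.37 ± 1.30 CPM with XCT790 and 2.74 ± 1.02 CPM with CompA under the KO label, beside 2.17 ± 0.35 and 2.82 ± 0.29 CPM in WT. Neither Cd79a difference was called. Of the other 3 genes, Cd79b and Ms4a1 had lower means under the KO label with both inhibitors and Cd22 had higher ones, and none of these differences was called (adjusted p = 0.149 to 0.395). Ms4a1 still lay below all WT libraries with XCT790 (14.2 ± 3.68 against 19.8 ± 1.88 CPM), and Cd79b with CompA (5.48 ± 1.10 against 7.25 ± 0.60 CPM).

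Igj, the plasma cell member, was higher under the KO label with both inhibitors. With XCT790 it stood at 1.46, 4.67, 2.1 and 4.99 CPM in WT libraries and at 6.14, 102, 14.9 and 15.4 CPM in KO-labelled ones, and with CompA at 1.28, 2.99, 1.58 and 3.60 against 6.35, 81.3, 10.9 and 10.6 CPM. The groups did not overlap in either condition, with or without library 31 or 32, and the share of all genes that separated in this way is not given. The fit of all libraries gave a difference of 3.38 ± 0.94 with XCT790 (adjusted p = 0.0203) and 3.52 ± 0.97 with CompA (adjusted p = 0.0227), the only marker called in each (7.4% and 5.82% of genes were higher). Without libraries 29 to 32 it was 1.88 ± 0.40 (adjusted p = 0.00344) and 1.98 ± 0.42 (adjusted p = 0.00363), again the only marker called (7.54% and 6.33% higher). The adjusted p was 0.0512 and 0.0816 with the replicate block (2.69 ± 0.88 and 2.80 ± 0.98, with 6.17% and 4.66% of genes higher). It was also over 0.05 when library 3, 11 or 31 was left out for XCT790 (0.0721 to 0.197), and library 4, 12 or 32 for CompA (0.0803 to 0.224). Fcer2a went the other way in the same libraries, at 4.81 to 12.0 CPM under the KO label against 13.0 to 17.9 in WT with XCT790, and at 5.56 to 15.8 against 18.0 to 26.3 with CompA. Its groups did not overlap either, but the difference was not called with all libraries (adjusted p = 0.238 and 0.148) or without libraries 29 to 32 (0.13 and 0.0621), where 2.11% and 1.88%, and 1.48% and 1.57%, of genes were lower. Most plasma cell genes were not called beside Igj. Without libraries 29 to 32, 1 of 14 tested plasma cell genes was higher under the KO label with XCT790 and 1 with CompA (7.54% and 6.33% of all genes), and 0 were lower.

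In unstimulated cells Igj made up 35.6 ± 4.59% of the marker sum under the KO label and 18.2 ± 3.65% in WT, and this share did not overlap between genotypes, at 30.0 to 40.8% against 13.5 to 22.1%. Library 29, at 34.3%, was within the range of the other 3, so relative to the other markers its Igj was not set apart. Libraries 30, 31 and 32 had higher Igj shares than the other KO-labelled libraries of their conditions. The shares were 40.4% against 26.1 to 33.6%, 38.3% against 22.2 to 27.7%, and 27.6% against 16.1 to 18.7%.

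Whether stimulation or an inhibitor acted differently in the 2 genotypes was tested as an interaction. With all libraries none of the 9 was called for stimulation (33.7% of genes), XCT790 (24.7%) or CompA (21.6%). By edgeR Cd22 alone had an unadjusted p under 0.05 in each, and the counts called were 0, 1 and 1 by DESeq2 and 1, 0 and 0 by limma-voom. Without libraries 29 to 32, Cd79a, Cd79b and Cd22 were called in each of the 3 tests. On stimulation they fell further in KO-labelled cells (14.6% of genes had such a sign), by 1.41 ± 0.40, 1.09 ± 0.34 and 2.56 ± 0.50 (adjusted p = 0.0132, 0.0226 and 0.00086). For the inhibitors the change against stimulation alone was higher in KO-labelled than in WT cells (16.7% and 14% of genes with such a sign), and in KO-labelled cells none of the 3 was itself called. The difference for Cd22 was 2.83 ± 0.57 for XCT790 (adjusted p = 0.000903) and 2.87 ± 0.56 for CompA (adjusted p = 0.000719). With the replicate block Cd22 alone was called in each, at -2.32 ± 0.54, 2.79 ± 0.79 and 2.76 ± 0.75 (adjusted p = 0.0014, 0.00636 and 0.00562), where 23.6%, 22.6% and 20.8% of genes were called with the same sign. All 3 tests use the WT stimulated libraries that kept myeloid transcripts. The calls without libraries 29 to 32 also depend on leaving out libraries that were high in most of the tested markers.

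Several genes outside the 9 had a like profile. Across the 32 libraries, the 10 genes whose log2 level correlated best with the mean of the 8 B cell markers (Igj left out) were Blnk (Pearson r 0.969), Spib (0.967), Ly6d (0.961), Chst3 (0.96), H2-DMb2 (0.954), Faim3 (0.953), Cyp4f18 (0.951), 5031414D18Rik (0.95), Fcgr2b (0.947) and Scd1 (0.943). Of the members, Cd79a and Blk reached 0.975, Cd79b 0.971, Pax5 0.939, Cd22 0.924, Ebf1 0.923 and Ms4a1 0.876, each being part of the mean, while Fcer2a stood at 0.0733. Igj, which is not part of it, reached 0.817. The 5 genes closest to Igj itself were Rgs12 (0.91), Lpxn (0.894), Nt5e (0.892), Gdpd5 (0.891) and Siglecg (0.889). The points share genotype, treatment and the 4 high libraries, and the correlations are given as a description.

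Of 17 tested B cell receptor signalling genes 11 fell on stimulation of WT cells (38.8% of all genes fell) and 13 on that of KO-labelled cells (42.4%), or 16 without libraries 29 to 32 (41.5%). Against unstimulated WT cells 15 fell with XCT790 (41.3%) and 16 with CompA (41.1%). The kinase gene Lyn went from 81.7 ± 25.9 to 24.4 ± 14.9 and, with XCT790, to 1.57 ± 0.28 CPM in WT libraries, but myeloid cells express it too. The median change of the 17 genes was -1.35 in WT and -1.51 in KO-labelled cells on stimulation, beside -0.11 and -0.07 over all tested genes, and -2.48 in KO-labelled cells without libraries 29 to 32, beside -0.07. All 10 MHC class II genes, among them Cd74 and H2-Aa, fell on stimulation in both genotypes, with or without libraries 29 to 32. Myeloid and dendritic genes fell as well, 18 of 19 in KO-labelled cells without libraries 29 to 32. The part of those cells in the class II levels was not tested. Of 14 tested plasma cell genes 5 rose (34.5% of all genes rose) and 4 fell in WT cells, and 7 rose (39.3%) and 4 fell in KO-labelled cells, or 6 (38.3%) and 4 without libraries 29 to 32. Irf4, needed by plasma cells and also induced in activated T cells, rose from 25.8 ± 3.51 to 1110 ± 139 CPM in WT libraries, and made up most of the summed level of that list after stimulation (770 ± 52.0 CPM before and 1900 ± 119 CPM after). Between genotypes, 5 plasma cell genes were higher (12.5% of all genes were higher) and 1 lower (23.6%) under the KO label in unstimulated cells, and without libraries 29 to 32 it was 4 higher (13.8%) and 3 lower (23.1%). Irf4, Derl3, Ell2 and Pdia4 were higher in both fits. Sdc1, the gene of the surface marker CD138, was higher by 1.18 ± 0.46 (adjusted p = 0.0473) with all libraries but not called without these (0.33 ± 0.37, adjusted p = 0.474). Derl3 was higher by 1.41 ± 0.40 (adjusted p = 0.00856) and by 0.76 ± 0.30 (adjusted p = 0.0495). The immunoglobulin constant region genes Ighm, Ighd and Igkc were not analysed here.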

How the data were processed

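The authors deposited raw HTSeq counts per gene for 32 libraries, per the labels and the submitters' processing notes, which name Trimmomatic 0.36, HISAT2 2.1.0, SAMtools, HTSeq 0.9.1, R 3.4.4, DESeq2 1.18.1 and mm10. The strand setting and annotation were not given. The 5 summary lines per file were left out of library sizes (no feature 5.31 to 13.3%, ambiguous 1.1 to 2.32%). From these deposited counts, one edgeR 4.0.16 quasi-likelihood fit (R 4.3.3, TMM factors, filterByExpr) of all 8 groups gave log2 fold changes with SE and Benjamini-Hochberg adjusted p over 12332 genes, called under 0.05. Alternatives used DESeq2 1.42.0, limma-voom 3.58.1, other scalings and filters, only the groups compared, a replicate block, and libraries left out. The 4 comparisons of inhibitor-treated with unstimulated cells were added after seeing the data. No pair of replicates agreed within counting noise (lowest chi-square per degree of freedom 3.01).

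Library numbers give runs of 4. In KO-labelled runs, deviations from the group means correlated between libraries of a run at 0.185 to 0.681, so the run was used as the block (a term of the edgeR fit within a genotype, a random effect in limma-voom between genotypes). This pairing comes from the data, not from the labels. In WT runs it held for 2 of 6 pairs of treatments. On simulated counts for KO-labelled against WT unstimulated cells (11962 genes), 19 of 50 genes changed 1.5-fold and 45 of 50 changed 2-fold were recovered. Those counts had the same dispersion for every gene and no run of high libraries. In the real edgeR fit the SE of Cd79a was 0.917, and Igj, 3.67 times as high, was not called (adjusted p = 0.069). The recovered shares therefore do not hold for the 9 markers. The members and the gene lists were chosen with earlier results of these data known. Named genes outside the 9 are those of the fixed lists, those at least 2 times as high in libraries 29 to 32, and the genes with the highest correlation (log2 of CPM + 0.5). Promoter stretches were searched on both strands over 250 bases.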

Additional observations from a re-analysis of the deposited data

Results flagged for a closer look

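In 27 of the 72 combinations of a marker and a group, 1 library lay far from the other 3 by the gap to its neighbour over the whole range (above Dixon's 95% critical value). Chance passes that value in about 1 in 20 independent groups. The 72 are not independent, since the markers share libraries and most correlate, so the 27 cannot be set against that rate. Libraries 29 to 32 were also singled out with earlier results known. In 26 of the 27 it was the KO-labelled library of the run 29 to 32, as the highest. In the order unstimulated, stimulated, XCT790 and CompA, that library had 132, 44.5, 35.5 and 42.6 CPM of Cd79a, 166, 59.0, 47.1 and 54.4 CPM of Cd79b, and 150.0, 74.8, 52.1 and 72.7 CPM of Ms4a1. Blk stood at 37.2, 12.0, 9.0 and 17.8 CPM and Igj at 333, 146, 102 and 81.3 CPM. Pax5 was set apart in library 29 (13.2 CPM) and library 32 (3.19 CPM), and Cd22 in library 29 (78.5 CPM) and library 30 (10.1 CPM). For Fcer2a (45.2 CPM) and Ebf1 (14.7 CPM) library 29 alone was set apart. The remaining one was the lowest WT unstimulated library for Ebf1, library 1, at 1.85 CPM against 3.28 in the next.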

How the results depend on the processing

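Counts below are markers called of 9, and other values are log2 fold changes. The number of all genes called also moved with the setting, and its share is not printed beside each count. A shift in a count is therefore not a result about the markers alone. For WT stimulated against unstimulated cells, 1 marker was called in the fit of all libraries, 2 with DESeq2 size factors, upper-quartile factors, library totals or DESeq2, 3 with limma-voom, and 9 with only the groups compared or the replicate block. For XCT790 against stimulation in WT cells the count of 1 became 2 with DESeq2 and 6 with only the groups compared or the block, and for CompA 2 with DESeq2, 0 with limma-voom, 5 with only the groups compared and 6 with the block. XCT790 against CompA in WT cells went from 0 to 3 with only the groups compared and 2 with the block. In KO-labelled cells, stimulation gave 4, but 7 with library totals or limma-voom, 8 with the block and 9 without libraries 29 to 32, and the Fcer2a change of -0.31 became 0.20 with limma-voom and 1.06 without these libraries. The block gave 2 for XCT790 and 1 for CompA against stimulation and 1 for XCT790 against CompA, from 0 each.

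Between genotypes in unstimulated cells the count of 0 became 1 with limma-voom, 2 with only the groups compared or the replicate block, and 4 without libraries 29 to 32. There Cd79a (0.61) became -0.0085, -0.017 and -0.67 with limma-voom, the block and without these libraries, Cd79b (0.20) became -0.32, -0.34 and -0.96, and Ms4a1 (0.50) became -0.089, -0.091 and -0.79. In stimulated cells the count of 0 became 1 with DESeq2 and 4 without libraries 29 to 32, Cd79a (0.27) became -1.12, -1.11 and -2.08 and Ms4a1 (0.34) became -0.15, -0.15 and -0.70 in the same order, and Cd79b (-0.04) became 0.014 with DESeq2 size factors, 0.017 with no low-count filter and 0.034 with DESeq2. The count of 1 with XCT790 and with CompA became 2 with DESeq2 and 0 with limma-voom or the block. Interactions went from 0 to 1 with the block in all 3, 3 without libraries 29 to 32 in all 3, 1 with limma-voom for stimulation, and 1 with DESeq2 for both inhibitors. Against unstimulated KO-labelled cells, XCT790 gave 8 but 4 with only the groups compared, and CompA gave 4 but 7 with limma-voom and 8 with the block or without libraries 29 to 32, where Fcer2a became 0.32 with XCT790 and 0.81 with CompA. The summed level in WT XCT790 libraries was 49.8 CPM, but 46.8 with upper-quartile factors and 46.2 with library totals. The cause of these shifts was not tested.

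Leaving out single libraries gave counts of 0 to 2 for stimulation and for XCT790 in WT cells, 0 to 1 for CompA, 2 to 8 for stimulation of KO-labelled cells, 0 to 1 between genotypes in stimulated cells and with either inhibitor, 0 to 1, 0 to 3 and 0 to 3 for the interactions with stimulation, XCT790 and CompA, and 2 to 9 and 1 to 8 for XCT790 and CompA against unstimulated KO-labelled cells. Signs turned for Ms4a1 (-1.94 to 0.41) and Fcer2a (-0.59 to 0.92) on stimulation of KO-labelled cells, and with XCT790 (-1.95 to 0.10 and -1.34 to 0.18) and CompA (-1.63 to 0.51 and -0.90 to 0.62) against unstimulated ones, with Blk at -2.63 to 0.023 for CompA. They turned for Blk (-1.61 to 0.66) and Igj (-2.01 to 0.95) for XCT790 against stimulation, Igj (-2.39 to 0.60) for CompA and Blk (-2.07 to 0.52) for XCT790 against CompA. Between genotypes Cd79a, Cd79b and Ms4a1 ranged over -0.67 to 0.93, -0.96 to 0.50 and -0.79 to 0.81 unstimulated and -2.05 to 0.68, -2.02 to 0.36 and -0.66 to 0.67 stimulated. In the interactions Cd79a and Cd79b ranged over -2.65 to 0.94 and -2.21 to 0.92 (stimulation), -0.11 to 4.33 and -0.47 to 3.27 (XCT790) and -0.27 to 4.2 and -0.34 to 3.29 (CompA).

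Over all other settings, 755 of 918 values of single markers kept their direction and their side of the threshold. Over all tested genes, calls between genotypes went from 4454 to 2294 in unstimulated and from 3111 to 1438 in stimulated cells with only the groups compared, and those on the stimulation interaction from 4161 to 2394. XCT790 against CompA went from 1161 to 2854 in WT cells and from 400 to 73 in KO-labelled ones (991 with the block, 615 with DESeq2). In KO-labelled cells XCT790 against stimulation went from 1390 to 240 (2788 with the block) and CompA from 2378 to 860 (3821 with the block), and the CompA interaction from 2661 to 4243 with the block. Pax5 and Ebf1, with few counts per library, are limited by depth.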
